A study of Mus musculus with 14 samples.

Results

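The aryl hydrocarbon receptor and its partner, repressors and targets were followed in liver RNA from 14 male TALLYHO mice, a polygenic model of type 2 diabetes. The 10 genes were taken by name from the 55487 genes of the count table: the receptor *Ahr*, its dimerisation partner *Arnt*, the repressors *Ahrr* and *Tiparp*, the targets *Cyp1a1*, *Cyp1a2*, *Cyp1b1*, *Nqo1* and *Aldh3a1*, and *Nfe2l2*, which encodes NRF2. Of these genes, 8 had enough reads for the group comparison, which covered 12653 genes, while *Ahrr* and *Aldh3a1* did not. The mice were 8–12 weeks old, the age given for all mice of the study. A group of 7 received indole at 20 mg/kg and a group of 7 received water, as 2 gavages per day for 7 consecutive days. The 2 metabolic tests followed on days 8 and 10, with 2 further doses on the day between them. No later dose is described, and the right liver lobe was collected the day after the second test. The paper cites a half-life of indole below 8 h, and liver RNA was not sampled sooner after a dose. All 14 mice therefore carried the diabetic background and had been through the same tests, and the study's methods describe a rapid but uneven progression of diabetes in this strain. Mice are named here by their library, G1 to G14.

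Each library represents a single mouse. Vehicle libraries held 15390922 to 21060376 reads on genes (median 18117524) and indole libraries 15197498 to 18464326 (median 17740715). Neither a batch nor a pairing of mice is named in the labels. All 11 hepatocyte markers were detected, and their summed level was 100502 to 123704 counts per 1000000 normalised reads (CPM) with vehicle and 92689 to 127406 CPM with indole. Red blood cell markers had higher estimates with indole, with an unadjusted *p* below 0.05 in edgeR for 7 of the 7 tested, against 1.53% of all genes, 0 after adjustment, and summed levels of 222 to 403 CPM in vehicle mice against 280 to 1122 CPM in indole mice. Estimates were also higher with indole for 13 of 13 sinusoidal endothelial markers (2 with an unadjusted *p* below 0.05, median log2 difference 0.26). The same held for 14 of 15 macrophage markers (0, median 0.20), 3 of 3 intestine and pancreas markers (2) and 3 of 3 B cell markers (1). Lower estimates were found for 7 of 8 bile duct markers (1, *Krt19*, median −0.26), against 2.28% of all genes in that direction. Stellate cell markers had 6 higher and 7 lower estimates (1 lower below 0.05, *Col1a1*), and hepatocyte markers 5 and 6 (1 higher, *Ttr*). The macrophage markers of indole mouse G8 summed to 804 CPM, against 162 to 411 CPM in the vehicle group. Libraries G1 to G4 stood apart in composition, with TMM scaling factors of 1.07 to 1.08 against 0.931 to 1.004 in the other 10. These 4 libraries comprise 2 mice of each group. In bulk tissue, fewer cells of a type and less RNA per cell cannot be told apart.

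The receptor is a ligand-activated transcription factor of the bHLH-PAS family that waits in the cytoplasm with HSP90 and other chaperones. When a ligand such as a dioxin or a tryptophan-derived indole binds, it moves to the nucleus, pairs with ARNT and binds the xenobiotic response element (XRE), whose core is GCGTG. *Cyp1a1* is its classic inducible target and is nearly silent in unstimulated liver, whereas *Cyp1a2* is made constitutively by hepatocytes around the central vein. *Ahrr* and *Tiparp* are themselves targets that feed back on the receptor, and *Nqo1* also answers to NRF2 through the antioxidant response element (ARE). Indole is a bacterial product of tryptophan and a proposed ligand, so the question was whether these transcripts differed in liver after its repeated oral administration.

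The sequences just upstream of 4 genes are shown as a description. These genes are *Cyp1a1*, which had few reads, *Cyp1a2*, the most abundant member, *Nqo1*, whose level followed that of *Cyp1a2* from mouse to mouse, and *Ahrr* with almost no reads. Each sequence is the 250 bases that precede the RefSeq start (GRCm38.p6), written 5′ to 3′ on the strand of the gene. Bases farther upstream were not searched, and a link between upstream sequence and level was not tested. Capitals mark a match to the XRE core GCGTG (either strand), to the ARE letters TGACNNNGC (either strand) or to TATAAA (strand of the gene only).
*Cyp1a1*, chr9:57697363-57697612, plus strand: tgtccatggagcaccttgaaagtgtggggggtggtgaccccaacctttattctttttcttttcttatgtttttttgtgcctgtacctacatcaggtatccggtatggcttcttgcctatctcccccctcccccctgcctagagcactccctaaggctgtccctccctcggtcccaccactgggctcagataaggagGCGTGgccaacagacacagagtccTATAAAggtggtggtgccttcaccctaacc
*Cyp1a2*, chr9:57683656-57683905, minus strand: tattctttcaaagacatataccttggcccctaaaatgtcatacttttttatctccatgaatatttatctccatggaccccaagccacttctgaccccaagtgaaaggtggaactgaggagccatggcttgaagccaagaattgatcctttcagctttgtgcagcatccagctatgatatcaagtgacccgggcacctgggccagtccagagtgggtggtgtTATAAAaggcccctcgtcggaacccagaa
*Nqo1*, chr8:107403206-107403455, minus strand: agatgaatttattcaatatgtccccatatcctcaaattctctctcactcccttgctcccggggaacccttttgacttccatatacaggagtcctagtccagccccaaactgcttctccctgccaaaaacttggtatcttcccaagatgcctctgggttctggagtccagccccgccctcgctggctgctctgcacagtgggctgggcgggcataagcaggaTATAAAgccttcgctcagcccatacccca
*Ahrr*, chr13:74292332-74292581, minus strand: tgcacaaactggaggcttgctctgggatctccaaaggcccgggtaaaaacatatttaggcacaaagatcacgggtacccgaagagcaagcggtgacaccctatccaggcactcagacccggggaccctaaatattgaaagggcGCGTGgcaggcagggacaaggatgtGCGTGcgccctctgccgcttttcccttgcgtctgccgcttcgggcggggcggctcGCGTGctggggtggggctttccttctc

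Of the 10 genes, 8 have such a window in the RefSeq table, and *Ahr* and *Aldh3a1* are named only. *Ahrr* held 3 XRE cores, starting 107, 82 and 27 bases before the start. *Cyp1a1* held 1 core 54 bases before the start, beside a TATAAA 30 bases before it, and *Tiparp*, *Cyp1b1* and *Arnt* held 1 core each, at 170, 76 and 29 bases. The windows of *Cyp1a2* and *Nqo1* held a TATAAA 29 bases before the start and neither of the other motifs, and *Nfe2l2* held an ARE match 240 bases before it. *Arnt* also held 2 ARE matches, 127 and 50 bases before the start. Among 32851 RefSeq windows of this length, 28.16% held the XRE core, 10.16% the ARE letters and 7.592% TATAAA. *Cyp1a1* and *Cyp1a2* lie head to head on chromosome 9, with 4224 bases between the gene spans of the count table. The RefSeq start of *Cyp1a1* lies inside the longer span that the count table gives the gene.

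No difference between indole-treated and vehicle-treated livers was detected for the receptor, its partner or the targets tested. An unadjusted *p* below 0.05 in edgeR's quasi-likelihood test was given to 0 of the 8 genes, against 3.81% of all 12653 genes tested, and the adjusted *p* from edgeR was 0.998 for each of the 8. DESeq2 on the same genes also gave 0 of the 8, against 4.2% of all, and so did DESeq2 on every gene with a read, against 3.19% of 22535 genes. The CPM of the groups overlapped for all 8 genes, as it did for all but 0.0474% of the genes tested. Estimated log2 differences ran from −0.22 for *Tiparp* to 0.12 for *Ahr*, with unadjusted *p* in edgeR between 0.199 and 0.983. The exact permutation *p* given for each gene tests another quantity, the difference in mean log2 CPM, which was 0.12 for *Ahr*, −0.13 for *Arnt*, −0.12 for *Tiparp*, 0.02 for *Cyp1a1*, 0.10 for *Cyp1a2*, −0.09 for *Cyp1b1*, 0.03 for *Nqo1* and −0.05 for *Nfe2l2*. The 95% intervals excluded a 2-fold change in either direction for each of the 8 genes, and were widest for *Cyp1a1*, at 0.652-fold to 1.60-fold, and narrowest for *Nfe2l2*, at 0.841-fold to 1.09-fold.

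**Figure D1:**
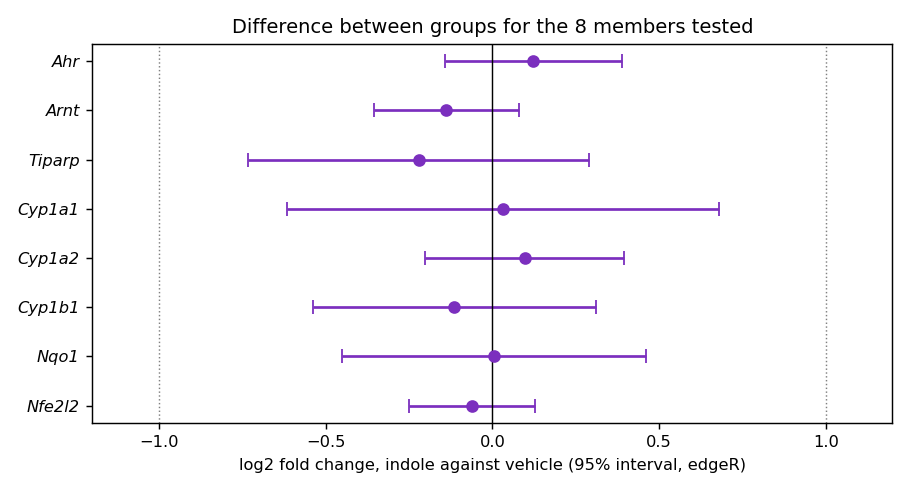
Log2 fold change of indole against vehicle for the 8 genes tested (points) with 95% intervals (bars) from edgeR, 7 mice per group. The solid line marks no difference and the dotted lines a 2-fold change, and every interval crosses the former and stays within the latter.

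*Ahr*, on chromosome 12 (35497974 to 35535038, minus strand, GRCm38), was expressed in every liver at 441 to 836 reads. Its level in the vehicle group was 25.3 CPM at the lowest (G9), 30.8 at the median and 44.7 at the highest (G11). In the indole group it was 29.2 CPM at the lowest (G3), 30.7 at the median and 47.1 at the highest (G12). The medians were close, and 1 vehicle mouse and 2 indole mice, G12 and G14, lay well above the rest. The means were 31.6±6.33 and 34.3±6.72 CPM (mean±SD, *n*=7 per group), a log2 difference of 0.12 (SE 0.127, 95% interval −0.14 to 0.39). The exact two-sided permutation test, over all 3432 divisions of the 14 mice into 7 and 7, gave *p*=0.399. Without vehicle mouse G11 the difference was 0.23 (unadjusted *p*=0.0523 in edgeR), and without indole mouse G12 it was 0.03.

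*Arnt*, on chromosome 3 (95434388 to 95497240, plus strand), encodes the partner that the receptor shares with the hypoxia factors. It ranged from 24.5 (G10) to 38.4 CPM (G9) with a median of 30.3 in the vehicle group, and from 21.9 (G5) to 34.0 CPM (G14) with a median of 27.95 in the indole group. The ranges overlapped over most of their width, although only 1 indole mouse lay above the vehicle median. The means of 31.0±4.86 and 28.1±3.81 CPM differed by −0.14 on the log2 scale (SE 0.104, interval −0.35 to 0.08, exact permutation *p*=0.262), and by −0.08 without vehicle mouse G9. *Ahr* and *Arnt* each overlap another gene in the table, a long non-coding RNA on the opposite strand with 51 reads over all mice and a processed pseudogene with 9, against 8125 and 7383 reads for the members.

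The feedback repressors were low. *Tiparp* (chromosome 3, 65528410 to 65555518, plus strand), an ADP-ribosyltransferase that limits receptor activity, ranged from 3.52 (G10) to 11.47 CPM (G4) with a median of 7.34 in the vehicle group. In the indole group it ranged from 4.78 (G5) to 8.99 CPM (G3) with a median of 6.06, inside the vehicle range. The means were 7.46±3.21 and 6.39±1.41 CPM, and the log2 difference in edgeR was −0.22 (SE 0.242, interval −0.73 to 0.29, unadjusted *p*=0.373). The difference in mean log2 CPM was −0.12 (exact permutation *p*=0.671). Without vehicle mouse G4 the edgeR estimate was −0.085, and without vehicle mouse G10 or G11 it was −0.34 or −0.33. *Tiparp* moved with library composition: it was 7.15 to 11.47 CPM (median 10.2) in libraries G1 to G4 and 3.52 to 8.20 CPM (median 5.79) in the other 10. Medians of the same libraries also differed for *Nfe2l2* (61.4 and 53.4 CPM), *Cyp1a2* (466 and 618 CPM) and *Nqo1* (4.54 and 6.10 CPM), with overlapping ranges. They were closer for *Ahr* (29.3 and 31.3 CPM) and *Arnt* (29.1 and 29.6 CPM). The part of composition in these levels was not tested. A gene on the opposite strand that overlaps *Tiparp* had 43 reads over all mice, against 1740 for *Tiparp*. *Ahrr* (chromosome 13, 74211118 to 74292331, minus strand), which competes with the receptor for ARNT, was at the limit of detection. It had 2 reads in the vehicle group, both in G9, and 4 in the indole group, with 1 in G7, 1 in G8 and 2 in G14. A limit of 3 reads over a group corresponds to 0.0238 CPM for vehicle and 0.0247 CPM for indole, and no fold is given from so few reads.

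*Cyp1a2* (chromosome 9, 57676937 to 57683703, minus strand), the constitutive hepatic P450 of the family that oxidises caffeine and aromatic amines, was by far the best measured target, with 8245 to 14615 reads per mouse. Vehicle mice ranged from 452.5 (G4) to 809 CPM (G11) with a median of 534, and indole mice from 456 (G2) to 779 CPM (G12) with a median of 600.2. The groups covered nearly the same range, and the highest and the lowest of the 14 mice were both vehicle-treated. The means were 566±126 and 605±124 CPM, with a log2 difference of 0.10 (SE 0.142, interval −0.20 to 0.40, exact permutation *p*=0.538). In fold terms the interval ran from 0.869 to 1.32. Without vehicle mouse G11 the log2 difference was 0.20, and without indole mouse G12 it was 0.03.

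*Cyp1a1* (chromosome 9, 57687928 to 57703824, plus strand), the most inducible member of the family, was near silent in both groups. Between 10 and 31 reads were counted per vehicle mouse, with a median of 1.08 CPM and a highest level of 1.70 CPM in G4. Between 8 and 32 reads were counted per indole mouse, with a median of 1.12 CPM, the lowest level of 0.420 CPM in G2 and the highest of 1.80 CPM in G12. The ranges overlapped, and the highest of the 14 mice was 4.29 times the lowest. The log2 difference was 0.03 (SE 0.311, interval −0.62 to 0.68, exact permutation *p*=0.956), and its sign changed when single mice were left out (range −0.14 to 0.19). The deposited reads are uniquely mapped, and transcripts of *Cyp1a1* and *Cyp1a2* share runs of up to 137 identical bases, with 94 of the 2737 stretches of 50 bases in *Cyp1a1* also found in *Cyp1a2*, or 3.43%. A read that lies wholly within such a run cannot be assigned to either gene, and the share of reads affected was not measured.

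*Cyp1b1* (chromosome 17, 79701537 to 79715061, minus strand), a P450 that metabolises oestrogens and polycyclic hydrocarbons and is best known outside hepatocytes, was also low, at 19 to 47 reads per mouse. Vehicle mice ranged from 1.27 (G6) to 2.44 CPM (G11) with a median of 2.01, and indole mice from 1.29 (G14) to 2.16 CPM (G5) with a median of 1.88. The indole range fell inside the vehicle range. The means of 1.90±0.429 and 1.76±0.355 CPM differed by −0.11 on the log2 scale (SE 0.204, interval −0.54 to 0.31, exact permutation *p*=0.567). This estimate lay between −0.18 without vehicle mouse G6 and −0.04 without vehicle mouse G11.

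*Nqo1* (chromosome 8, 107388225 to 107403206, minus strand), a quinone reductase under both the receptor and NRF2, had 72 to 179 reads per mouse. Vehicle mice ranged from 3.60 (G13) to 9.91 CPM (G11) with a median of 5.27, and indole mice from 3.78 (G2) to 8.81 CPM (G8) with a median of 5.55. Each group held 1 mouse well above the rest, and the means of 5.82±2.15 and 5.84±1.74 CPM were nearly equal. The log2 difference was 0.00 (SE 0.219, interval −0.45 to 0.46, exact permutation *p*=0.916). *Aldh3a1* (chromosome 11, 61207537 to 61218421, plus strand), an aldehyde dehydrogenase induced through XREs in many cell types, had 0 reads in all 14 mice, out of 247148660 reads in all, which allows a level of up to 0.0121 CPM. *Nfe2l2* (chromosome 2, 75675513 to 75704641, minus strand) ranged from 44.4 (G13) to 72.6 CPM (G4) with a median of 55.7 in the vehicle group and from 49.2 (G7) to 58.4 CPM (G3) with a median of 53.5 in the indole group. All indole mice lay inside the vehicle range, and the difference was −0.06 on the log2 scale (SE 0.0905, interval −0.25 to 0.13, exact permutation *p*=0.640).

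**Figure D2:**
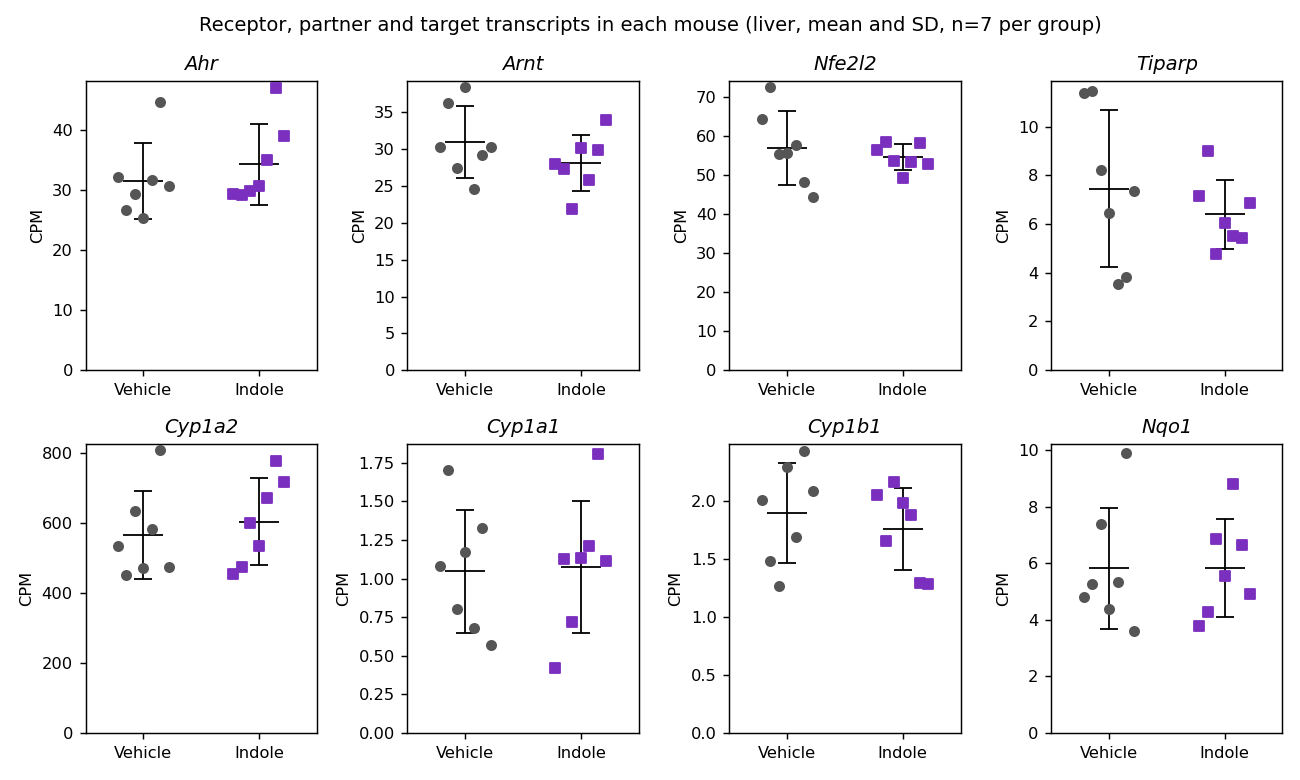
Level of each of the 8 genes tested in each mouse, in CPM (linear axes from 0), for vehicle (grey circles) and indole (purple squares), with the mean and SD of each group of 7. The groups overlap in every panel, and vehicle mouse G11 and indole mouse G12 are the highest of their groups for *Ahr* and *Cyp1a2*.

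Compared per gene length, as CPM per kilobase of gene length (RPKM) over all 14 mice, the constitutive P450 stood far above the rest of the pathway. *Cyp1a2* had a mean of 291 RPKM, followed by *Nfe2l2* at 14.7, *Ahr* at 5.35, *Nqo1* at 3.75, *Arnt* at 3.69, *Tiparp* at 1.59, *Cyp1a1* at 0.381 and *Cyp1b1* at 0.313 RPKM. The ranges over mice of *Ahr*, *Nqo1* and *Arnt* overlapped, so their order did not exceed the spread, and the same held for *Cyp1a1* and *Cyp1b1*. *Tiparp*, at 0.809 to 2.63 RPKM, lay below the whole range of *Arnt* (2.73 to 4.80) and above that of *Cyp1a1* (0.151 to 0.647). The ratio of *Cyp1a2* to *Cyp1a1* per length ran from 368 to 1190 in vehicle mice (median 843) and from 585 to 1502 in indole mice (median 768). This ratio did not differ beyond the spread, with a log2 difference of 0.09 and *p*=0.784 in the exact permutation test.

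**Figure D3:**
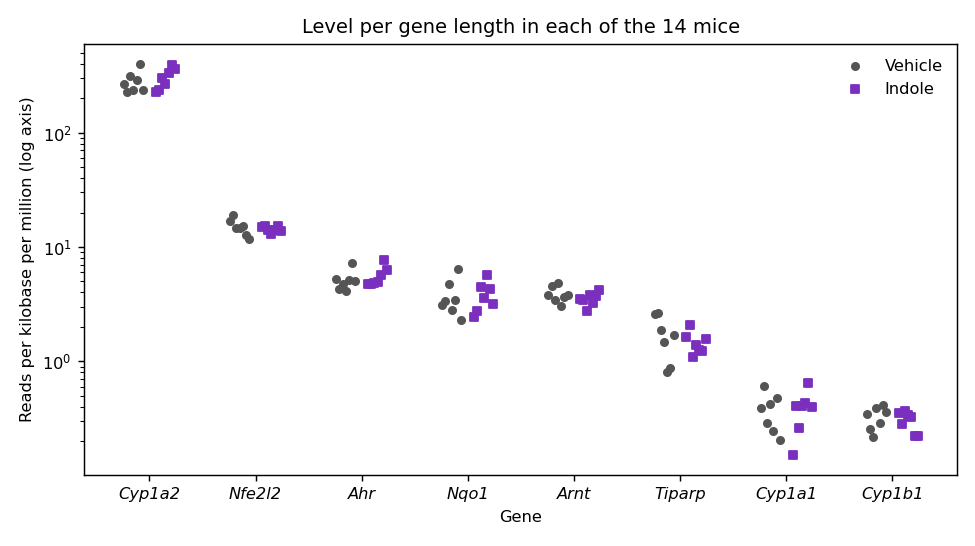
Level per gene length of the 8 genes in each mouse, in RPKM on a log axis, for vehicle (grey circles) and indole (purple squares). *Cyp1a2* lies between 225 and 402 RPKM in all 14 mice, and *Cyp1a1* and *Cyp1b1* lie below 0.65 RPKM.

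Several of these genes varied more between mice of a group than other genes of like abundance. The within-group SD of log2 CPM was 0.263 for *Ahr*, 0.298 for *Cyp1a2*, 0.449 for *Nqo1* and 0.520 for *Tiparp*. The medians over the 500 genes nearest in abundance to each were 0.157, 0.166, 0.282 and 0.267, and the median over all genes tested was 0.238. *Cyp1a1*, at 0.545, varied like its neighbours in abundance (0.548), and *Cyp1b1*, at 0.307, varied less than most of its own (0.437). *Arnt* at 0.211 and *Nfe2l2* at 0.179 lay nearer to theirs (0.163 and 0.149). These values are a description and were not tested.

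From mouse to mouse the receptor and its constitutive target moved together. Log2 CPM of *Ahr* and *Cyp1a2* correlated over the 14 mice with Pearson *r*=0.878 (permutation *p*=3e-05, Benjamini–Hochberg adjusted *p*=0.00084 over 28 pairs of genes) and Spearman rho=0.842 (permutation *p*=0.00026, adjusted *p*=0.00728). The relation held within the vehicle group (*r*=0.857) and within the indole group (*r*=0.893), and *r* was 0.882 without libraries G1 to G4. *Cyp1a2* also correlated with *Nqo1*, with *r*=0.783 (permutation *p*=0.00107, adjusted *p*=0.015) and rho=0.745 (permutation *p*=0.00304, adjusted *p*=0.0426), and within the groups with *r*=0.900 for vehicle and 0.668 for indole. Vehicle mouse G11 and indole mouse G12, the highest for *Cyp1a2*, were also the farthest from the median of the 14 mice in *Ahr* and in *Cyp1a2*. Without them *r* was 0.77 for *Ahr* and *Cyp1a2* (permutation *p*=0.00188) and 0.701 for *Cyp1a2* and *Nqo1* (permutation *p*=0.0118), and neither passed the adjustment over 28 pairs (adjusted *p*=0.0526 and 0.166).

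The other pairs did not pass that adjustment. *Cyp1a1* followed neither the receptor (*r*=0.371, permutation *p*=0.193, adjusted *p*=0.391) nor *Cyp1a2* (*r*=0.369, permutation *p*=0.194, adjusted *p*=0.391) beyond the spread, at read counts where counting error is large. Within the vehicle group its *r* was 0.002 with *Ahr* and 0.012 with *Cyp1a2*, and within the indole group 0.708 and 0.684. The difference in *r* between the groups was not tested. *Ahr* and *Nqo1* gave *r*=0.528 (permutation *p*=0.0516, adjusted *p*=0.302), and *Ahr* and *Arnt* gave *r*=−0.117 (permutation *p*=0.686, adjusted *p*=0.732). *Tiparp* ran against *Cyp1a2* with *r*=−0.566 (permutation *p*=0.0368, adjusted *p*=0.302).

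**Figure D4:**
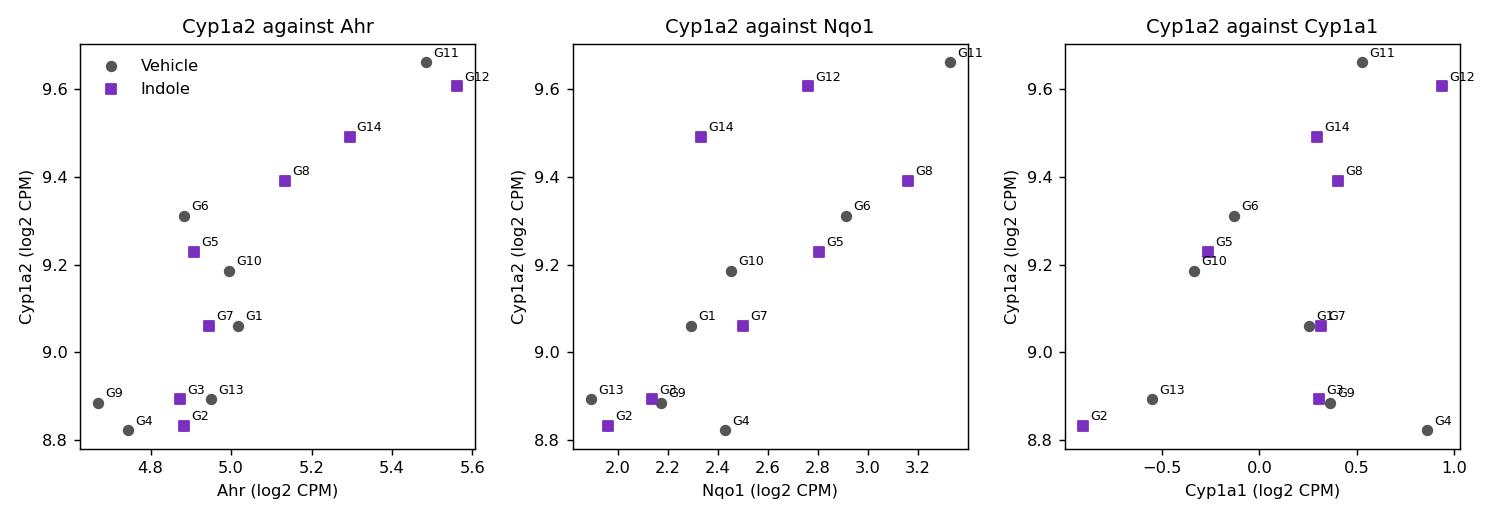
Log2 CPM of *Cyp1a2* (vertical axis) against that of *Ahr*, *Nqo1* and *Cyp1a1* (horizontal axes), 1 point per mouse, labelled by library, for vehicle (grey circles) and indole (purple squares). Mice high in *Ahr* are high in *Cyp1a2* in both groups (*r*=0.878), with G11 and G12 at the top. For *Cyp1a1* the order is weaker over all mice (*r*=0.369), with *r*=0.012 within vehicle and 0.684 within indole.

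Among 9863 genes with a mean of at least 50 reads, *Ahr* was the gene whose log2 CPM, centred within groups, was most like that of *Cyp1a2* (*r*=0.875 over 14 mice). It was followed by *Hsd17b7*, an enzyme of cholesterol synthesis, at 0.846 and by *Atl2*, a GTPase that shapes the endoplasmic reticulum, at 0.830, while *Nqo1* ranked 21st at 0.790. The genes most like *Cyp1a1* were others: *Pigr*, the polymeric immunoglobulin receptor, at 0.868, *Rfc2*, a subunit of replication factor C, at 0.867 and *Papss2*, which makes the sulfate donor PAPS, at 0.861. For *Cyp1a1*, *Ahr* ranked 1131st and *Cyp1a2* 1182nd of 9864 genes.

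Markers of sinusoidal endothelial and stellate cells ran against *Ahr* and *Cyp1a2*, and those of macrophages did not (7 of 15 and 10 of 15 positive, medians −0.03 and 0.03). All 13 sinusoidal endothelial markers had a negative centred correlation with *Ahr* (median −0.72) and with *Cyp1a2* (median −0.57), and so did all 13 stellate cell markers (medians −0.58 and −0.50), against medians of 0.00 and −0.01 over all genes. Bile duct markers also leaned negative (2 of 8 and 1 of 8 positive, medians −0.34 and −0.32). Hepatocyte markers leaned positive (9 of 11 and 10 of 11, medians 0.06 and 0.34). Red blood cell markers were positive for 7 of 7 with both genes (medians 0.24 and 0.40). The sinusoidal markers summed to 151 to 265 CPM in the vehicle group, with G11 the lowest at 151, and to 189.9 to 355 CPM in the indole group, with G12 the lowest at 189.9. The stellate markers summed to 447 to 540 and to 312 to 628 CPM, again with G11 at 447 and G12 at 312 the lowest of their groups, and no marker of either list was at 0. Genes of both liver zones tended to run with *Cyp1a2*. The centred correlation was positive for 15 of 15 periportal genes (median 0.39) and for 9 of 14 pericentral genes (median 0.38), and with *Ahr* for 12 of 15 and 10 of 14 (medians 0.15 and 0.20). Over the 14 mice and without centring, log2 of the summed pericentral CPM correlated at 0.75 with *Cyp1a2*, 0.69 with *Nqo1*, 0.47 with *Ahr* and −0.53 with *Tiparp*. Abundant genes weigh most in that sum, and no such sum was formed for the periportal genes. The TMM factor correlated with *Cyp1a2* at −0.62. Clock genes mostly ran against *Ahr*, *Cyp1a2* and *Nqo1*. Their centred correlation was positive for 2, 2 and 1 of 16 genes (medians −0.21, −0.31 and −0.32). With *Tiparp* it was positive for 16 of 16 (median 0.44). The part of cell mixture, zonation, clock genes and composition in the relation between *Ahr* and *Cyp1a2* was not tested.

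The rest of the pathway also showed no difference that passed the adjustment. Of 26 further genes of the receptor battery, such as glutathione transferases, UDP-glucuronosyltransferases and *Cyp2a5*, 20 were tested, of which 11 had a higher and 9 a lower estimate, and 0 had an unadjusted *p* below 0.05 in edgeR (background 3.81%). Their median log2 difference was 0.02, against 0.00 over all genes tested. *Cyp2a5*, a coumarin hydroxylase and the most abundant of them, was at 1005±245 CPM with vehicle and 992±193 CPM with indole, a log2 difference of −0.02. Estimates in this list ranged from −0.97 to 0.82.

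Of 17 chaperones and co-regulators, 16 were tested, with 4 estimates higher, 12 lower and 0 with an unadjusted *p* below 0.05, and a median log2 difference of −0.06. *Hsp90ab1*, the HSP90 chaperone that holds the unliganded receptor, was at 827±78.2 and 849±72.1 CPM (log2 difference 0.04). The 4 bHLH-PAS relatives tested, of 13, all had lower estimates (median −0.07) and 0 had a *p* below 0.05. The most abundant was *Epas1*, the hypoxia factor HIF-2α, at 93.5±8.16 and 91.8±10.8 CPM.

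Of 39 NRF2 targets and regulators, 37 were tested, with 23 estimates higher, 14 lower and a median of 0.04. A single one had an unadjusted *p* below 0.05, a share below that of all genes in either direction (3.81%). This was the glutathione transferase *Gsta3*, at 1470.5±153 CPM against 1674±129 CPM (log2 difference 0.19, SE 0.0793, unadjusted *p*=0.0288, adjusted *p*=0.998 in edgeR, exact permutation *p*=0.0233). Liver turns indole into indoxyl sulfate by oxidation and sulfation. Of 16 genes listed for such steps, 14 were tested, with 8 estimates higher and 6 lower. Of these, 2 had an unadjusted *p* below 0.05, both higher with indole, against 1.53% of all genes. This list, like the others, was chosen with earlier results of these data known, so its share is not independent of them. Its median log2 difference was 0.02, with estimates from −0.88 to 0.41. The P450 *Cyp2c29* was at 1872±185 CPM with vehicle and 2487±298 CPM with indole (log2 difference 0.41, SE 0.0878, unadjusted *p*=0.000143, adjusted *p*=0.998 in edgeR, exact permutation *p*=0.000583, the smallest that the design can give), with lowest, median and highest levels of 1625, 1924 and 2101 CPM against 2148, 2687 and 2776 CPM. The 2 groups did not overlap for *Cyp2c29*, which was so for 0.0474% of all genes tested. Aldehyde oxidase *Aox1* was at 46.4±3.64 and 55.9±12.8 CPM (log2 difference 0.27, SE 0.117, unadjusted *p*=0.0331, adjusted *p*=0.998 in edgeR), and its exact permutation *p* was 0.105. *Cyp3a11*, the most abundant of the list, was at 11385±1949 and 11851±2510 CPM. The P450 *Cyp2e1* and the sulfotransferase *Sult1a1* had log2 differences of 0.04 and −0.08 (unadjusted *p*=0.65 and 0.66 in edgeR). The part of each of these genes in the turnover of indole was not tested.

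All 9 enzymes that make receptor ligands from tryptophan were tested, with 4 estimates higher, 5 lower and 0 with a *p* below 0.05. *Tdo2*, which opens the kynurenine route in liver, was at 1819±160 and 1742±190 CPM. The 16 clock genes, included because the receptor shares the bHLH-PAS domain with clock factors, had 7 estimates higher and 9 lower. The repressor *Bhlhe41* alone had an unadjusted *p* below 0.05, in the lower direction, against 2.28% of all genes (3.16±1.005 and 2.09±1.06 CPM, log2 difference −0.58, unadjusted *p*=0.0489, adjusted *p*=0.998 in edgeR, exact permutation *p*=0.0624), while the output gene *Dbp* was at 198±29.3 and 189.95±22.1 CPM. Of 14 pericentral genes tested, among which *Cyp1a2* is not counted, 11 estimates were higher and the median was 0.10. The senescence marker *Rgn* (log2 difference 0.17, unadjusted *p*=0.031) and the bile acid enzyme *Cyp27a1* (0.16, unadjusted *p*=0.0172) were the 2 with a *p* below 0.05 in edgeR, both higher, against 1.53% of all genes (exact permutation *p*=0.0186 and 0.00291). The 15 periportal genes had 4 estimates higher and 11 lower, with 0 below 0.05 and a median of −0.02. No gene of these lists had an adjusted *p* below 0.05.

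**Figure D5:**
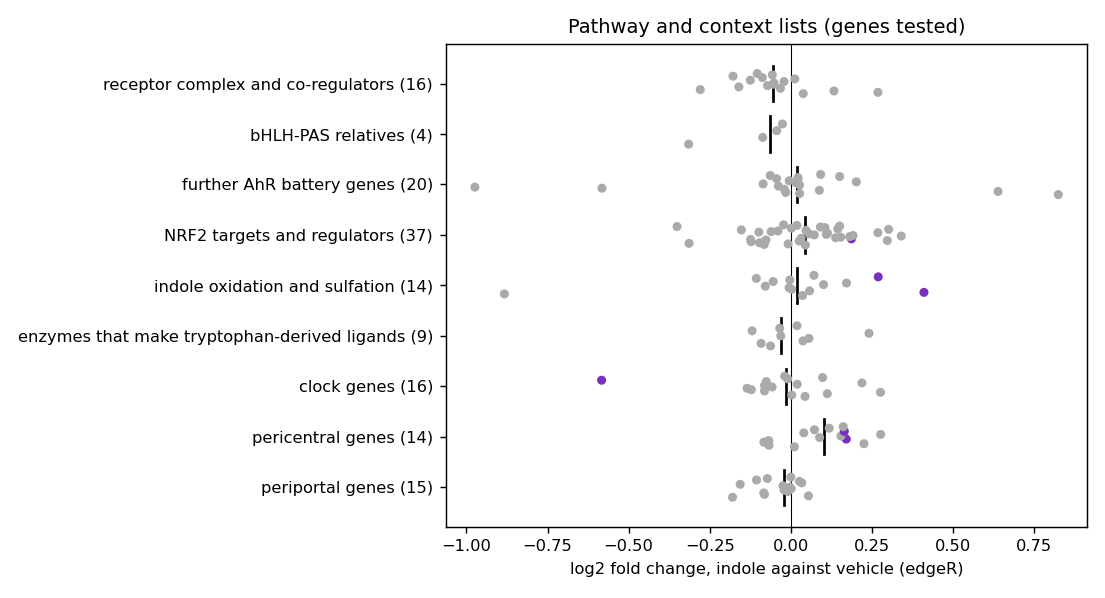
Log2 fold change of indole against vehicle (edgeR) for each gene tested in 9 lists of pathway and context genes, with the number tested in brackets. Short black bars are list medians, which lie between −0.07 and 0.10, and purple points are the 6 genes with an unadjusted *p* below 0.05.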

How the data were processed

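Strand-specific polyA libraries of 14 TALLYHO livers (7 vehicle, 7 indole) were grouped by the sample labels. The authors trimmed adapters, aligned reads to GRCm38 with HISAT2 and deposited raw counts of uniquely mapped reads per gene, and the counting tool and strand setting are not given in the sources used here. Reads shared by near-identical genes may therefore be lost, and overlapping genes are uncertain. The counts were fitted with edgeR 4.0.16 in R 4.3.3 (TMM, filterByExpr, robust quasi-likelihood test, Benjamini–Hochberg adjustment over the 12653 genes tested) and with DESeq2 1.42.0 and limma 3.58.1 as alternatives, beside other scalings and filters, a term for 4 libraries and leaving out each mouse. The procedure was tested on simulated data. CPM are TMM-normalised, RPKM use the deposited gene lengths, and correlations used log2 CPM with 100000 permutations. A limit of 3 reads, which covers counting error only, was set for genes at or near 0. Libraries of a group differed by more than sampling noise (chi-square over degrees of freedom at least 16.8). The 10 genes were fixed by name. In other lists, the most abundant gene and every gene with an unadjusted *p* below 0.05 were named, and for *Cyp1a1* and *Cyp1a2* the 3 genes most like them. *Cyp2e1* and *Sult1a1* were named in addition. Members and lists were chosen with earlier results of these data known.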

Additional observations from a re-analysis of the deposited data

Results flagged for a closer look

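The *Ahr* level of vehicle mouse G11 (44.7 CPM) stood apart from the other 6 vehicle mice, with a gap to the next mouse of 0.643 of the range of the group. The same mouse was the highest of the vehicle group for *Cyp1a2* and *Nqo1*. The *Ahrr* level of vehicle mouse G9 was apart by a gap of 1, the whole range of the group, because its 2 reads were the only ones in that group. Of 20 such comparisons, 2 stood out, where chance gives about 1 in 20.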

How the results depend on the processing

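The fold changes of the 8 genes were recomputed under 23 alternatives each, and of the 184 values 170 kept their direction, 14 turned it and 0 had an unadjusted *p* below 0.05. Those that turned were of *Cyp1a1*, *Nqo1* and *Nfe2l2*, whose main estimates were 0.03, 0.00 and −0.06. The turned values reached −0.14 for *Cyp1a1* and −0.12 for *Nqo1*. Leaving out 1 mouse at a time gave −0.14 to 0.19 for *Cyp1a1*, −0.12 to 0.19 for *Nqo1* and −0.11 to 0.00838 for *Nfe2l2*, and, with no change of sign, −0.34 to −0.085 for *Tiparp*, −0.19 to −0.08 for *Arnt*, −0.18 to −0.04 for *Cyp1b1*, 0.03 to 0.23 for *Ahr* and 0.03 to 0.20 for *Cyp1a2*. limma voom gave −0.089 for *Tiparp*, and a term for libraries G1 to G4, added after seeing the data, gave −0.0155 for *Nqo1*. Without a filter on low counts 1336 genes of all had an unadjusted *p* below 0.05, against 482, and DESeq2 on the same genes gave 1 adjusted call against 0. Leaving out 1 mouse gave 386 to 627 unadjusted and 0 adjusted calls. The number of gene pairs past the adjustment was 2. It fell to 1 without libraries G1 to G4 (added after seeing the data), where *Cyp1a2* and *Nqo1* gave *r*=0.743 (permutation adjusted *p*=0.219). It fell to 0 without the 2 mice farthest from the median in the first gene of each pair. It stayed at 2 with centring within groups, without G8 and with RLE scaling. No paired analysis was possible because the labels give each mouse a number of its own, shared with no mouse of the other group. At 8 to 32 reads per mouse, *Cyp1a1* could not have shown differences as small as those bounded for *Cyp1a2*.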
